A study of Mus musculus with 6 samples.

Results

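Sox1, Sox21, Olig2, Rax, En1, Gbx2, Lhx5, Six3, Six6 and Zic1 are transcription factor genes that pattern the early neural plate of the mouse embryo. Their accessible chromatin was described from ATAC-seq peaks of differentiating mouse epiblast stem cells. A peak belonged to a gene when its summit lay within 100 kb of that gene and no other protein-coding gene was nearer. By this rule the 10 genes, out of 21887 protein-coding genes, held 192 of the 205844 peaks listed for Mixl1-induced cells and 119 of the 139164 peaks listed for Mixl1 knockout cells.

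In ATAC-seq, Tn5 transposase inserts adapters where DNA is not covered by nucleosomes, so fragments pile up over open regulatory DNA. Epiblast stem cells are taken from the epiblast after implantation and can form all germ layers, neural plate included, and Mixl1 is a homeobox gene of the primitive streak. The induced group comprised 3 libraries from Mixl1-inducible cells that received 1 µg/mL doxycycline during the 24 h before collection. The knockout group comprised 3 libraries from Mixl1 knockout cells, for which no doxycycline is recorded. Both groups were embryoid bodies at day 2 of serum differentiation, made from lines kept on irradiated embryonic fibroblasts, and each library took 50000 cells and 11 PCR cycles. Which part of Mixl1 was altered, how the inducible line was built and whether it also carries the knockout are not stated in the labels. The replicates are called triplicates, with no word on separate cultures.

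Each group was represented by a single pooled peak list. The first, named FM, was matched to the induced cells by elimination because the other is named KO and no label explains FM. With 1 list per group there was no spread between replicates, so no difference between the groups was tested. The peak caller's values are the authors', and all intervals given here are exact 95% intervals for counting error only. The depth in reads is unknown.

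Neural plate cells arise where the anterior epiblast is shielded from the signals that drive streak formation. SoxB proteins such as Sox1 keep cells in a neural progenitor state, and homeobox, bHLH and zinc finger factors then divide the plate into forebrain, eye field, midbrain, hindbrain and dorsal and ventral domains. Such developmental genes are known for large surrounding intergenic stretches that hold many distal enhancers.

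The DNA just before the start of 4 of these genes is shown first because the peaks at or near these starts are described below. At Olig2 the summits of both lists fell inside this window, at En1 the FM peak reached the start and the KO peak stopped short of it, at Gbx2 the summits lay on opposite sides of the start, and at Zic1 no peak of either list covered the start. The sequences are RefSeq's for GRCm38.p6, the assembly that mm10 names, and each gives the 250 bases before the start on the gene's strand, 5′ to 3′. The stretches are chr1:120602237-120602486 (plus strand) for En1, chr1:89931177-89931426 (minus strand) for Gbx2, chr16:91225300-91225549 (plus strand) for Olig2 and chr9:91365769-91366018 (minus strand) for Zic1. Capitals mark matches to the motifs searched, read on either strand.
En1: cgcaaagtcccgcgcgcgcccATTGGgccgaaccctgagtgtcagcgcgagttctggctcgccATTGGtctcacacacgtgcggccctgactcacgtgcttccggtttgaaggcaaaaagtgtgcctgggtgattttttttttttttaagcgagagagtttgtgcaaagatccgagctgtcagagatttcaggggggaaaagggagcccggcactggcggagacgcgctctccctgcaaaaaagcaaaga
Gbx2: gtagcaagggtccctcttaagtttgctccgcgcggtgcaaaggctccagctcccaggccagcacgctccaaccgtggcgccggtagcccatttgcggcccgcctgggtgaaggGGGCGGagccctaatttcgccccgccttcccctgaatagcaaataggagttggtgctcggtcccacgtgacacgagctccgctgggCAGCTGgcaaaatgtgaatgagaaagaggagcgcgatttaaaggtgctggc
Olig2: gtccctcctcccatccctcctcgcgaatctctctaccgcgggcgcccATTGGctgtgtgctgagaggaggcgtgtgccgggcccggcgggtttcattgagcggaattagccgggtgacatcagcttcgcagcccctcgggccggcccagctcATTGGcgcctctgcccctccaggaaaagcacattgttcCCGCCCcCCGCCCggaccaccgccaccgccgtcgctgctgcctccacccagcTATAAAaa
Zic1: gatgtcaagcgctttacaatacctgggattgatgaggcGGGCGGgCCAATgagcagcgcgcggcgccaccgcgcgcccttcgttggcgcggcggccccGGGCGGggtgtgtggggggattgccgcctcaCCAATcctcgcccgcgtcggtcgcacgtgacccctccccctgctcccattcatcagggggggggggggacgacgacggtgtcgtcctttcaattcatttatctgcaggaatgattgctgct

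The promoter table held 8 of the 10 genes; Rax and Lhx5 were not matched. Each motif was searched on both strands. The GC box, GGGCGG, stood before 5 of the 8 starts, against 42.7% of 17492 protein-coding genes in the table. The CCAAT box stood before 6 of 8, against 36.3% of genes. In the windows printed above, CCAAT lay 203 to 199 and 98 to 94 bases before the Olig2 start, and a TATAAA match lay 8 to 3 bases before it. TATAAA occurred at no other of the 8 genes, against 12.4% of all genes. Of the E-boxes, CAGCTG occurred at Gbx2 alone, against 11.6% of all genes, and CACCTG at none of the 8, against 16.5%. The homeodomain core TAATTA (4.45% of all genes), its palindromic paired-type form, which can overlap that core (0.377%), and the Otx-type motif TAATCC (5.95%) had no match before the 8 starts. The Sox motif ACAATGG (2.36% of all genes) and the Smad motif CAGACA (15.2%) had none either, which says only that these letters are not in these windows. The 8 windows were rich in CpG, with a median GC content of 64% and a median CpG observed to expected ratio of 0.791, against 55.2% and 0.536 over all genes. The range ran from 48.8% GC at Six3 to 71.2% at Sox1.

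Merging both lists gave 216 regions at the 10 genes, out of 239675 in all. A region was called shared when it held peaks of both lists that touched by at least 1 bp, and FM-only or KO-only otherwise. Of the 216 regions, 98 were FM-only (43.6% of all regions were), 26 were KO-only (16% of all) and 92 were shared (40.5% of all). FM-only regions thus made up 79.0% of the 124 regions found in a single list (interval 70.8 to 85.8), against 73.2% over all such regions. A larger FM-only than KO-only number was seen at 8 of the 10 genes and an equal number at Gbx2 and Zic1, while 76.4% of 16330 protein-coding genes with a region in a single list had more FM-only ones. The interval at the 10 genes held the share of the whole lists, of which FM is the longer. The direction turned when the 50000 peaks of lowest p were taken from each list, with 14 FM-only and 24 KO-only regions at the 10 genes, an FM-only share of 36.8%, against 49.7% over all regions. In these pooled samples, fewer cells with open chromatin and less open chromatin per cell cannot be told apart.

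**Figure D1:**
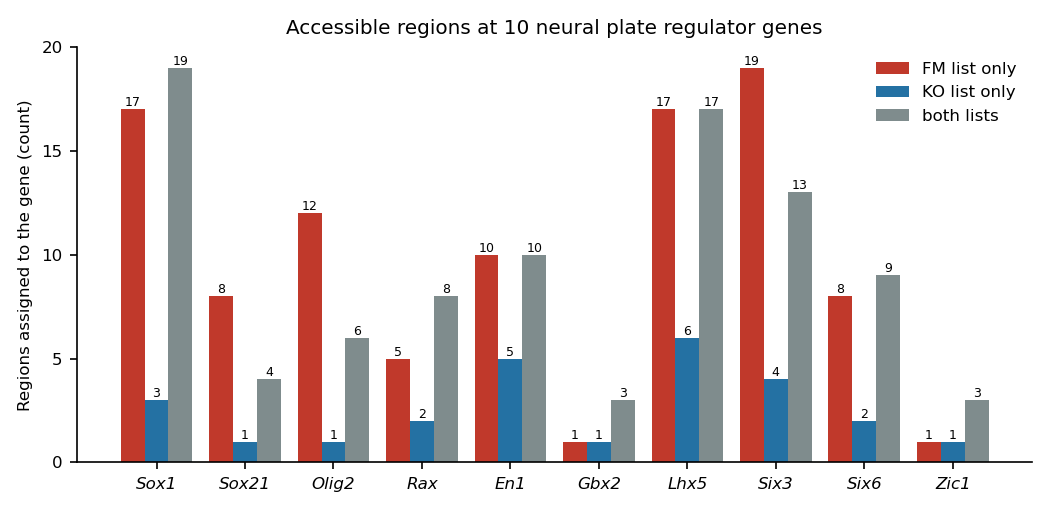
Regions assigned to each gene that were found in the FM list only (red), the KO list only (blue) or both lists (grey), as counts with the number above each bar. Six3, Sox1 and Lhx5 had the most FM-only regions (19, 17 and 17), and Gbx2 and Zic1 had 1 of each single-list kind.

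All but Gbx2 and Zic1, which had 5 regions each, were surrounded by more regions than the median gene. The median number of regions per gene was 19 for the 10 genes and 5 for all protein-coding genes, with medians of 9 and 2 for FM-only, 2 and 1 for KO-only and 8.5 and 2 for shared regions. Over the stretches assigned to the 10 genes, 0.981 Mb in all, the FM list had 19.6 peaks per 100 kb and the KO list 12.1, against 10.1 and 6.84 over the stretches of all protein-coding genes. A stretch shared with an overlapping gene was counted whole for each gene. The 10 genes thus differed from the background in how densely peaks lay around them more than in how the lists shared those peaks.

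**Figure D2:**
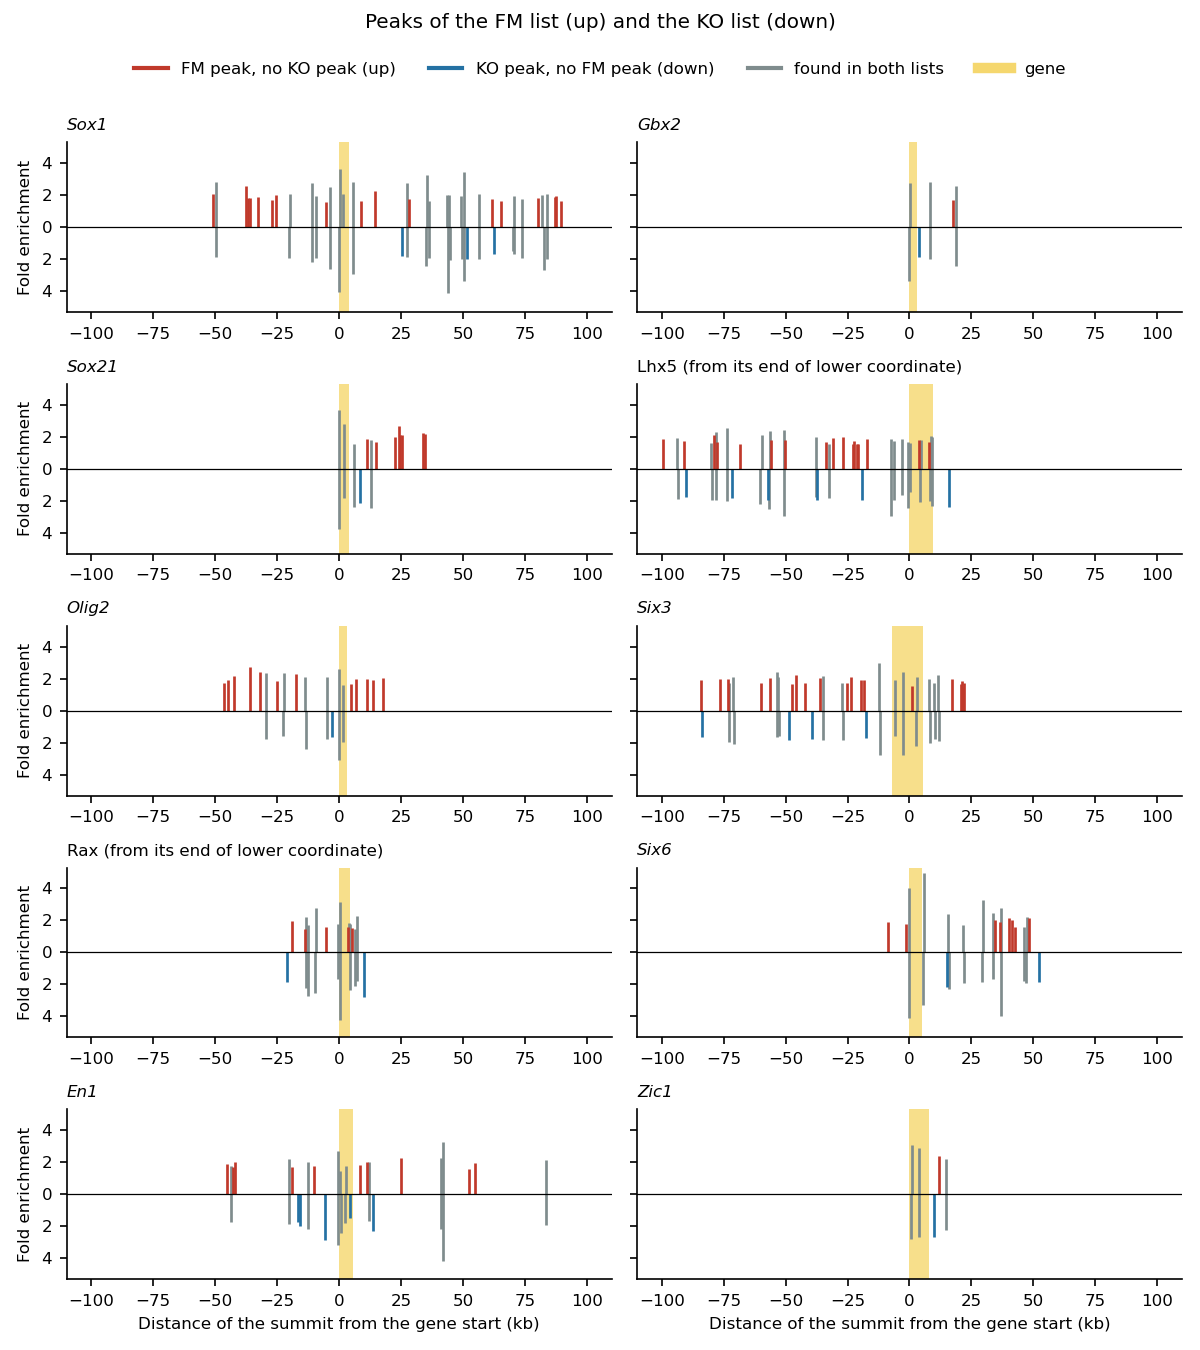
Fold enrichment of every peak at the 10 genes against the distance of its summit from the gene start in kb, in the direction of transcription, with FM peaks drawn upward and KO peaks downward. Red and blue lines are peaks with no counterpart in the other list, grey lines are peaks found in both and the yellow band is the gene; for Rax and Lhx5 distances run from the end of lower coordinate. Grey lines cluster at the gene, and runs of red lines lie away from Sox21, Sox1 and Olig2.

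Among the genes of the general neural progenitor state, Sox1 (gene ID 20664, chr8:12395519-12399555, plus strand) had the most regions bar Lhx5. Sox1 encodes an HMG-box factor that is among the earliest markers of neural fate. It had 17 FM-only, 3 KO-only and 19 shared regions, from 37 FM and 23 KO peaks. The peak over its start had a fold enrichment, the summit's fragments over the local background, of 3.60 in the FM list, against 4.06 in the KO list. Their −log10 q, the peak caller's significance after adjustment, was 57.7 in FM and 94.0 in KO. The fragments at the summit, called the pileup and recovered from fold and p, numbered 239 in the FM list (interval 210 to 271) and 334 in the KO list (299 to 372), over local backgrounds of 65.7 and 81.4. The start peak was thus present in both lists, with a pileup interval wholly higher in the KO list; the background was higher there too, and its part in the result was not tested.

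The highest fold at Sox1 in the KO list was not at the start but at chr8:12439054-12439488, 43.8 kb beyond it. There the FM peak had a fold of 2.00 and a pileup of 58 (interval 44.0 to 75.0), and the KO peak had a fold of 4.09 and a pileup of 130 (interval 109 to 154). The local backgrounds were nearly alike, 28.6 fragments in the FM list, against 31 in the KO list. A distal region upstream went the other way. At chr8:12345733-12346576, 49.6 kb before the start, the fold was 2.79 in the FM list, against 1.84 in the KO list, with pileups of 92 and 54. These distal regions, both with separate pileup intervals, were thus stronger in opposite lists and lay on opposite sides of the gene. The sides did not divide the lists throughout. Downstream, chr8:12429687-12431349 had a fold of 3.26 in the FM list, against 2.42 in the KO list. Its pileups of 156 and 116 had overlapping intervals.

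Sox21 (gene ID 223227, chr14:118233233-118237030, minus strand) encodes a SoxB factor that promotes neuronal differentiation. It had 8 FM-only, 1 KO-only and 4 shared regions. Its start peak was almost the same in both lists, with a fold of 3.66 in the FM list, against 3.76 in the KO list, and with pileups of 166 and 177. A second peak inside the gene, at chr14:118234565-118235040 in the FM list, had a fold of 2.79 there and 1.80 in the KO list, with pileups of 131 and 94. A shared region 1.91 kb downstream, at chr14:118231037-118231323, was the only one of its 4 whose pileup intervals did not overlap, with 61 fragments in the FM list, against 112 in the KO list.

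Zic1 (gene ID 22771, chr9:91358058-91365768, minus strand) encodes a zinc finger factor of the dorsal neural plate and neural crest border. It had 1 FM-only, 1 KO-only and 3 shared regions. The gene table has it overlapping Zic4, so summits inside both genes counted for both and summits nearer to Zic4 counted for Zic4 alone. No peak covered the Zic1 start, whose upstream sequence is printed above; the nearest peak edge was 326 bp away in the FM list, against 308 bp in the KO list. That peak, inside the gene, had a fold of 3.06 and a pileup of 101 in the FM list, against a fold of 2.80 and a pileup of 97 in the KO list. A second peak inside the gene had folds of 2.87 and 2.69. The pileup intervals of the lists overlapped in all 3 shared Zic1 regions.

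Rax, Six3, Six6 and Lhx5 are genes of the forebrain and eye field. Rax (gene ID 19434, chr18:65934639-65939089) encodes a homeobox factor needed for eyes to form. It had 5 FM-only, 2 KO-only and 8 shared regions. Its strongest peak lay just inside its end of lower coordinate, where FM had a fold of 3.14 (−log10 q 36.5) and KO a fold of 4.19 (−log10 q 79.7). The pileup there was 183 (interval 157 to 212) in FM, against 273 (interval 242 to 307) in the KO list, over backgrounds of 57.6 and 64.4. At chr18:65921668-65922269, 12.4 kb from the gene, the FM pileup was 89 and the KO pileup 172. At chr18:65940805-65941397, 1.72 kb beyond the other end, they were 67 and 110. All 3 of the Rax regions with separate intervals were higher in the KO list. Chromosome 18 as a whole had 0.895 KO peaks for each FM peak, against 0.676 over all chromosomes, and the part of this in the Rax values was not tested.

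Six3 (gene ID 20473, chr17:85613608-85626191, plus strand) encodes a homeobox factor of the anterior forebrain that represses Wnt genes there. Its annotated interval holds the start at 85620834. With 19 FM-only regions it had more than any other of the 10 genes, beside 4 KO-only and 13 shared ones. No peak of either list covered its start. A weak FM-only peak lay 836 bp from it (fold 1.54, −log10 q 2.63), and the nearest KO peak was 2326 bp away. Its highest folds were at chr17:85608175-85609253 in the FM list, 12.1 kb before the start, with 2.96 there and 2.74 in the KO list, and at chr17:85617675-85618508 in the KO list, 2.65 kb before the start, with 2.39 in the FM list, against 2.78 in the KO list. In all 13 shared Six3 regions the pileup intervals of the lists overlapped.

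Six6 (gene ID 20476, chr12:72939882-72944899, plus strand) encodes a close relative of Six3 that acts in the retina, hypothalamus and pituitary. It had 8 FM-only, 2 KO-only and 9 shared regions. Its start peak was nearly identical in the lists, with a fold of 4.06 and a pileup of 193 in the FM list, against a fold of 4.11 and a pileup of 195 in the KO list. The highest FM fold of all 10 genes, 4.98, belonged to a Six6 peak 0.936 kb beyond the gene at chr12:72945391-72946420, where the pileup was 229 (interval 200 to 261) in the FM list, against 161 (interval 137 to 188) in the KO list. The local backgrounds there were 45.2 and 48.0, and the summits of the lists lay 315 bp apart. Another distal region, chr12:72968885-72969521, had a pileup of 120 in the FM list, against 65 in the KO list, whereas chr12:72976709-72977161 had 124 and 193. Of the shared regions downstream of Six6, 2 were thus higher in the FM list, against 1 in the KO list, while the start peaks overlapped. Chromosome 12 had 0.807 KO peaks per FM peak.

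Lhx5 (gene ID 16873, chr5:120431886-120441457) encodes a LIM-homeobox factor of the anterior neural plate and forebrain. It had the most regions of the 10 genes, 17 FM-only, 6 KO-only and 17 shared. Its highest FM fold was the lowest among the 10 genes, while its highest KO fold was above those of Six3 and Zic1. Near its ends the strongest FM peak, chr5:120440091-120440616, had a fold of 2.03, against 2.00 for the KO peak there. The strongest KO peak, chr5:120430974-120431563, lay at the other end with a fold of 2.42, where the FM peak had 1.69. Its highest FM fold, 2.53, was 73.6 kb from the gene at chr5:120358097-120358688, with a pileup of 110 in the FM list, against 66 in the KO list. This was the only shared Lhx5 region, of 17, whose pileup intervals did not overlap. Its highest KO fold, 2.95, was at chr5:120424137-120424373, where the FM fold was 1.89, with pileups of 83 in the FM list, against 118 in the KO list.

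En1 and Gbx2 mark the midbrain and the anterior hindbrain. En1 (gene ID 13798, chr1:120602487-120607991, plus strand) encodes a homeobox factor of the boundary between the midbrain and hindbrain. It had 10 FM-only, 5 KO-only and 10 shared regions, the largest KO-only number after Lhx5. The peak before its start, over the printed sequence, ended at the start base itself in the FM list and 59 bp before it in the KO list. It had a fold of 2.69 and a pileup of 151 (interval 128 to 177) in the FM list, against a fold of 3.15 and a pileup of 210 (interval 183 to 240) in the KO list, over backgrounds of 55.5 and 65.9. Inside the gene, chr1:120602855-120603581 had a pileup of 80 in the FM list, against 157 in the KO list. A distal region 42.1 kb beyond the start, chr1:120643905-120645233, had the highest fold of the gene in both lists, with 3.29 and a pileup of 111 in the FM list, against 4.20 and a pileup of 164 in the KO list. All 3 En1 regions with separate intervals were higher in the KO list, and the distal one had the highest KO fold of the 10 genes.

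Gbx2 (gene ID 14472, chr1:89927962-89931176, minus strand) encodes a homeobox factor that sets the anterior limit of the hindbrain. Another protein-coding gene, LOC102637806, lies 0.899 kb above it, so peaks upstream of Gbx2 fell to that neighbour and only 5 regions were assigned, 1 FM-only, 1 KO-only and 3 shared. The start peak had a fold of 2.73 and a pileup of 190 (interval 164 to 219) in the FM list, with its summit 50 bp after the start. In the KO list it had a fold of 3.37 and a pileup of 250 (interval 220 to 283), with its summit 197 bp before the start, inside the printed sequence. A wide region downstream, 4.96 kb from the gene at its FM summit, went the other way. There the FM peak, chr1:89921916-89923706, had a fold of 2.81 and a pileup of 249, and the KO peak had a fold of 1.97 and a pileup of 136, over backgrounds of 88.1 and 68.4. In this downstream region the summits of the lists lay 280 bp apart. The shared regions at the Gbx2 start and downstream were thus higher in opposite lists, and 2 of its 5 regions were found in a single list.

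Olig2 (gene ID 50913, chr16:91225550-91228677, plus strand) encodes a bHLH factor of the ventral progenitors that make motor neurons and, later, oligodendrocytes. It had 12 FM-only, 1 KO-only and 6 shared regions, from 18 FM and 7 KO peaks. Its start peak had its summit at the same base in both lists, 176 bp before the start. The fold was 2.60 and the pileup 167 (interval 143 to 194) in the FM list, and the fold was 3.08 and the pileup 155 (interval 132 to 181) in the KO list, over local backgrounds of 63.7 and 49.7. None of the 6 shared Olig2 regions had separate pileup intervals. FM-only regions were 92.3% of its 13 single-list regions (interval 64.0 to 99.8), an interval that held the 73.2% of the whole lists.

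**Figure D3:**
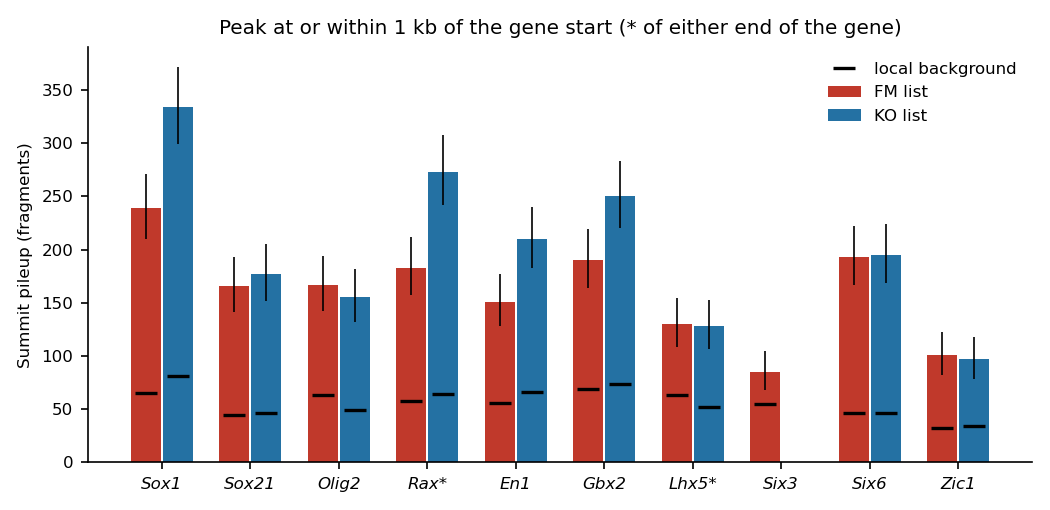
Pileup in fragments at the peak over or within 1 kb of each gene's start, in the FM list (red) and the KO list (blue), with exact 95% counting intervals; black marks are the local background. For Rax and Lhx5 (asterisks) the strongest peak within 1 kb of either gene end is drawn, and Six3 had no KO peak within 1 kb. The FM and KO bars of Lhx5 are different peaks, at opposite ends of the gene. The KO bar is higher with separate intervals at Sox1, Rax, En1 and Gbx2, and the bars overlap at Sox21, Olig2, Six6 and Zic1.

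Of the 8 genes with a known start, 5 (Sox1, Sox21, Olig2, Gbx2 and Six6) had the start inside a peak of both lists, against 60.9% of all 17492 genes in the promoter table. Counting each list alone, En1 joined them in the FM list only, through the base at which its peak ended, where 64.6% of all genes had their start in an FM peak and 63.1% in a KO peak. The starts of the neural plate genes were thus inside peaks about as often as those of other genes.

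Peaks that reached −log10 q 10 without any overlap in the other list were few. Such peaks numbered 4 of the 192 FM peaks (2.08%, interval 0.570 to 5.25), against 2.99% of all FM peaks, and 5 of the 119 KO peaks (4.20%, interval 1.38 to 9.53), against 2.59% of all KO peaks. Both intervals contained the share of the whole list. The counts hung on the threshold, with 38 FM and 11 KO peaks at −log10 q of at least 5, and 0 FM and 1 KO peak at 20. By gene, 3 of the 10 had such an FM peak (18.9% of all protein-coding genes, 31.9% of those with at least 5 regions) and 5 had such a KO peak (11.4% of all, 18% of those with at least 5 regions).

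The FM peaks of this kind all lay at a distance. At Olig2, chr16:91189448-91189744 had the highest FM fold of the gene, 2.71, with −log10 q of 15.6 and a pileup of 100, 36.0 kb upstream and 5.86 kb from the nearest KO peak. A second Olig2 peak, chr16:91193496-91193876, had a fold of 2.45 and a pileup of 94, and its nearest KO peak was 1.73 kb away. At Sox21, chr14:118212633-118212919 had a fold of 2.67 and a pileup of 78, 20.5 kb downstream, and no KO peak lay within 10.9 kb. At Sox1, chr8:12357554-12358290 had a fold of 2.54 and a pileup of 89, 37.4 kb upstream, and no KO peak lay within 11.2 kb. All 4 lay 20.5 to 37.4 kb from their genes.

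The KO peaks of this kind lay close to their genes, and none was at the genes just named. At En1, chr1:120596511-120597085 had the highest significance, with a fold of 2.86, −log10 q of 26.2 and a pileup of 152, 5.53 kb upstream, while the nearest FM peak was 4.26 kb away. At Rax, chr18:65944582-65944873 had a fold of 2.80, −log10 q of 17.6 and a pileup of 106, 5.63 kb from the gene. At Zic1, chr9:91355703-91356079 had a fold of 2.65 and a pileup of 78, 2.21 kb downstream, but an FM-only peak of fold 2.37 lay 1.48 kb further. The remaining KO peaks were chr5:120447455-120447837, 6.23 kb from Lhx5 (fold 2.40, pileup 86), and chr1:89927138-89927532, 0.537 kb downstream of Gbx2 (fold 1.89, pileup 162 over a background of 85.2). All 5 lay within 6.23 kb of their genes; with 4 and 5 peaks, the contrast in distance is a description of these lists. At the 24 other neural plate genes listed for comparison, strong single-list peaks numbered 12 of 296 FM peaks, at 7 genes, and 4 of 206 KO peaks, at 4 genes. Over the whole lists such peaks were 2.99% of FM and 2.59% of KO peaks. The larger number was in the FM list at the 24 genes and in the KO list at the 10 genes. The lists differ in length, and this contrast was not tested.

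**Figure D4:**
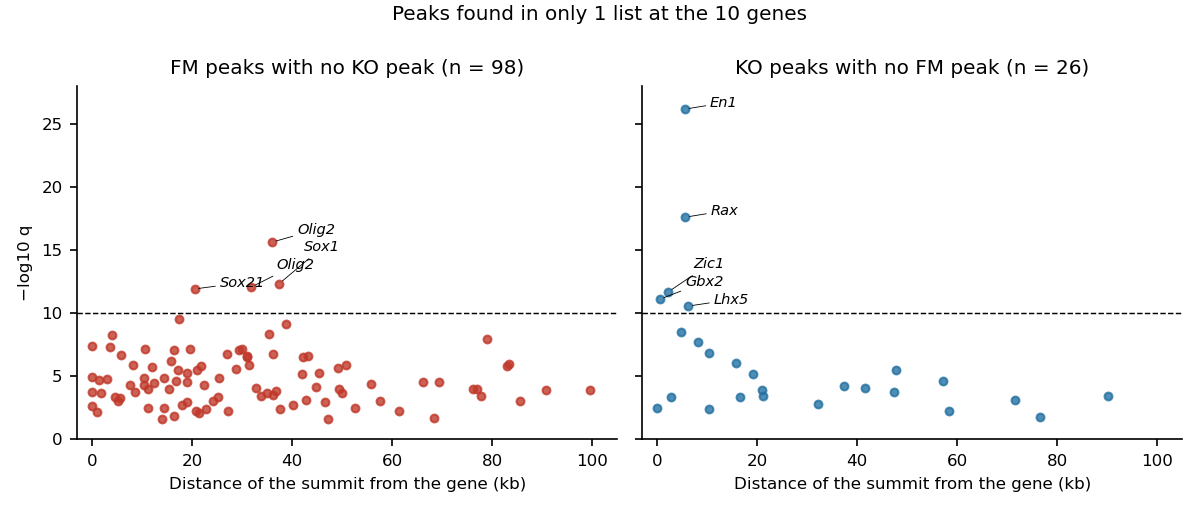
The −log10 q of each peak at the 10 genes that had no counterpart in the other list, against the distance of its summit from the gene in kb, for the FM list (left, 98 peaks) and the KO list (right, 26 peaks). The dashed line is −log10 q of 10; the 4 named FM peaks lie 20.5 to 37.4 kb from the gene and the 5 named KO peaks within 6.23 kb.

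FM-only regions also lay in runs with no KO peak between them, a feature looked for after the values were seen. The longest, downstream of Sox21 at chr14:118202147-118222123, held 7 FM-only regions with folds of 1.66 to 2.67, 11.2 to 31.0 kb from the gene, and no KO peak occurred over 42.8 kb. Upstream of Sox1, 6 FM-only regions at chr8:12357554-12370194 had folds of 1.69 to 2.54, and no KO peak occurred over 28.8 kb. Upstream of Olig2, 5 at chr16:91178822-91193876 had folds of 1.73 to 2.71, with no KO peak over 25.5 kb. The 4 strong FM-only peaks named above all lay in these 3 runs. Olig2 also had all 5 of its regions beyond the gene FM-only, 1.76 to 14.4 kb downstream with folds of 1.65 to 2.03. Lhx5 had a run of 6 at lower folds (1.54 to 1.99) and Six3 a run of 5 (1.47 to 1.97), whereas the longest run was 3 at Six6, 2 at Rax and En1, and 1 at Gbx2 and Zic1. A run of at least 5 was thus found at 5 of the 10 genes, against 8.83% of all protein-coding genes. Among genes with at least 10 regions it was found at 5 of 8 neural plate genes, against 24% of 7362 genes. The cut of 5 belongs to the same later search, and genes were not matched further for their number of regions. The FM list is the longer, and the part of its length in the runs was not tested.

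In the 92 shared regions the pileups of both lists could be set side by side. The counting intervals overlapped in 75 regions, were wholly higher in the FM list in 5 (5.43%, against 6.35% of all shared regions) and were wholly higher in the KO list in 12 (13.0%, against 9.26%). The 5 higher in the FM list belonged to Six6 (2), Sox1, Gbx2 and Lhx5. The 12 higher in the KO list belonged to Sox1, Rax and En1 with 3 each and to Sox21, Gbx2 and Six6 with 1 each. Besides those given above, they included a region 77.7 kb beyond Sox1, chr8:12477229-12478514, with pileups of 73 in the FM list, against 123 in the KO list. Each pileup is that at the list's own summit, and the summits in this Sox1 region lay 930 bp apart. Olig2, Six3 and Zic1 had no region with separate intervals in either direction. The local background was higher in the KO list in each of the 12 and higher in the FM list in 4 of the 5, and its part in the pileups was not tested. The genome background, recovered as the local background of 53438 FM and 38641 KO peaks, was almost the same, 28.55 fragments for FM and 28.85 for KO.

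**Figure D5:**
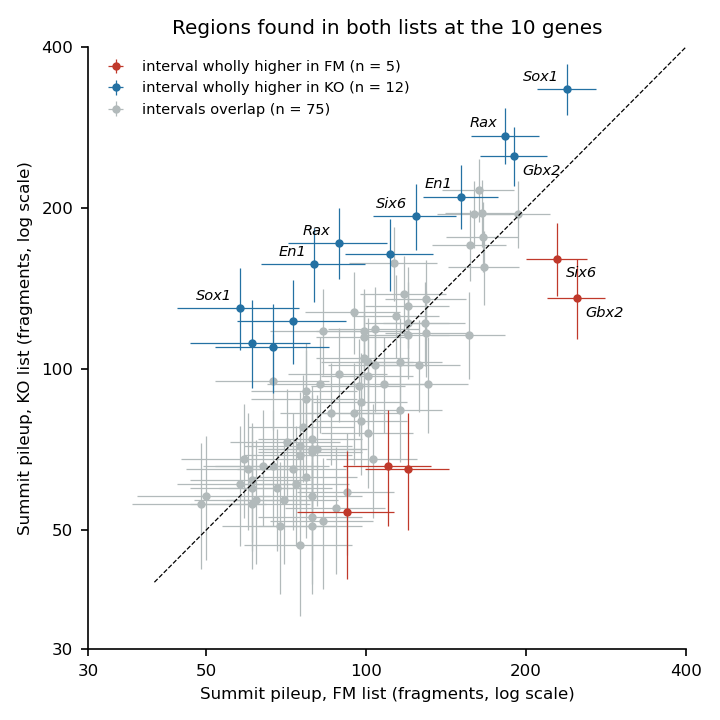
Summit pileup of the 92 shared regions in the FM list (horizontal) and the KO list (vertical), in fragments on log axes, with exact 95% counting intervals and the line of equality dashed. Red points are wholly higher in the FM list (5), blue points wholly higher in the KO list (12) and grey points overlap (75); the named blue points above 200 fragments are the Sox1, Rax and Gbx2 peaks at gene ends and the En1 peak before its start.

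Summits of the shared regions lay a median of 71.5 bp apart, and within 100 bp of each other in 53 of the 92 (57.6%, against 67.8% of all shared regions). The median fold over the shared regions was 2.10 for FM and 2.03 for KO, against 2.17 and 2.11 over all shared regions. The highest folds at the 10 genes, 4.98 for FM and 4.20 for KO, were far below the highest of the lists, 42.9 and 45.4.

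The nearest regions had the largest shared portion, given here as a description. Within 10 kb of a gene there were 17 FM-only, 10 KO-only and 44 shared regions (62.0% shared). From 10 to 25 kb there were 30, 6 and 13 (26.5% shared), from 25 to 50 kb 34, 5 and 20 (33.9%) and from 50 to 100 kb 17, 5 and 15 (40.5%). Over all regions near a protein-coding gene the shared portion was 42.4%, 38.7%, 36.8% and 34.4% in the same bins. From 10 to 50 kb, where the runs at Sox21, Sox1 and Olig2 lie, 64 FM-only and 11 KO-only regions gave an FM-only share of 85.3%, against 71.0% of all single-list regions at that distance. This span was taken because it holds those FM-only runs, so its share is not separate from them. FM-only peaks had their summit at a median of 26.2 kb from the gene, against 11.6 kb for FM peaks with a KO counterpart, and KO-only peaks at 17.8 kb, against 12.7 kb for KO peaks with an FM counterpart. Within 10 kb lay 17.3% of the FM-only peaks at the 10 genes and 47.9% of the FM peaks with a counterpart, against 75.9% and 78.8% over all FM peaks near a gene, of which most were inside a gene, so the median distance over the list was 0 kb for both kinds.

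Most single-list peaks were narrow and weak. FM-only peaks at the 10 genes had a median width of 273.5 bp and a median fold of 1.86, and FM peaks with a counterpart had 522.5 bp and 2.09. KO-only peaks had 269 bp and 1.88, and KO peaks with a counterpart had 444 bp and 2.02. A −log10 q of at least 10 was reached by 41 of the 192 FM peaks (21.4%, against 24.1% of all FM peaks) and by 44 of the 119 KO peaks (37.0%, against 29.4% of all KO peaks). By gene, such peaks were fewer in the FM list at Rax (4 FM, 7 KO), Lhx5 (5 and 7), En1 (2 and 5), Six3 (3 and 4) and Zic1 (2 and 3). They were more numerous in the FM list at Sox1 (10 FM, 8 KO), Olig2 (4 and 1) and Six6 (5 and 3), and equal in number at Sox21 and Gbx2 (3 in each list). All 20 FM peaks with −log10 q over 20 had a KO counterpart, as had 19 of the 20 KO peaks over 20, the exception being the En1 peak upstream of its start. Nearly all such peaks of the whole lists had one too, 98.5% of FM and 94.3% of KO peaks with −log10 q of 20 to 50, and 99.8% and 99.6% of those over 50.

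The other neural plate genes listed for comparison, 24 in number, had 132 FM-only, 41 KO-only and 158 shared regions, an FM-only share of 76.3% (interval 69.3 to 82.4). That interval and the one of the 10 genes overlapped. More FM-only than KO-only regions were seen at 18 of the 24 and the reverse at 2, the ventral progenitor gene Nkx6-2 (0 FM-only and 3 KO-only) and the dorsal gene Olig3 (2 and 5). Sox2, the SoxB gene of pluripotent and neural cells, had 14 FM-only and 4 KO-only regions, and Emx2, a gene of the dorsal forebrain, had 18 and 0. Lhx2, an eye field and forebrain gene, had 10 and 4, the same total as Foxd3, a neural crest gene, with 12 and 2.

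Over the whole series, a peak within 1 kb of a gene end was found for 6 of 7 epiblast genes in the FM list, against 7 of 7 in the KO list, the exception being Nanog. All 7 streak genes had one in both lists, as had 4 of 6 fibroblast genes, listed because of the feeder layer, while Postn and Dcn had none in either list. Mixl1 had a peak at its end in both lists, with folds of 4.26 in the FM list, against 2.97 in the KO list, and since the altered part is not given this does not check the labels. A peak at a marker gene does not show how many cells of a type were present. The part of other cell types in the values of the 10 genes was not tested.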

How the data were processed

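ATAC-seq was run on 3 libraries of Mixl1-induced and 3 of Mixl1 knockout cells. Per the submitters' processing notes the authors used mm10 with bcl2fastq, Bowtie2, SAMtools and MACS2, of unstated versions; library pooling, Tn5 shift and read filters remain not given in the sources used here. For each peak the authors deposited a fold enrichment over local background (a ratio) and the −log10 p-value and −log10 q-value, with a lowest −log10 q of 1.3 in both lists.

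From these, duplicate intervals were reduced to the summit of lowest p, and peaks on chromosomes 1 to 19, X and Y were assigned by summit to the nearest protein-coding gene within 100 kb in a RefSeq table of GRCm38.p6. That table has no strand, so starts came from the RefSeq promoter table. Pileup and background were solved from fold and p as whole fragments, accepted when −log10 p was matched within 0.001, which held for 99.9% of FM and 99.6% of KO peaks and for all 192 and 119 at the 10 genes. The lowest pileup called at the genome background was 45 fragments for FM and 46 for KO. Intervals are exact Clopper-Pearson (shares) or Poisson (pileups) intervals at 95% and cover counting error only. No test was made, since each group is 1 list.

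The members, gene lists and named peaks were chosen with earlier results of these data known. Named peaks are the highest fold of each gene and list, the peak at the gene start, and every peak of −log10 q of at least 10 without overlap in the other list; peaks with separate pileup intervals and runs were added after the values were seen. Overlap, assignment and pileup recovery were tested on simulated data. Python 3.11.15, numpy 2.4.6, pandas 2.3.3, scipy 1.17.1 and matplotlib 3.10.9 were used.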

Additional observations from a re-analysis of the deposited data

How the results depend on the processing

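The FM-only excess at the 10 genes changed with the number and strength of the peaks taken from each list. With 50000 peaks of lowest p from each list there were 14 FM-only, 24 KO-only and 26 shared regions, an FM-only share of 36.8% (49.7% over all regions), from 41 FM and 50 KO peaks. With as many FM peaks as the KO list holds, an alternative chosen after seeing the data, there were 53 FM-only and 43 KO-only regions, a share of 55.2% (50.5% over all). In both settings a single-list region can overlap a weaker peak left out of the other list. With both lists held to −log10 q 5 or more there were 61 FM-only, 22 KO-only and 49 shared regions, from 112 FM and 71 KO peaks. The FM-only share was then 73.5% (72.1% over all regions). Within 20 kb of a gene there were 39 FM-only, 14 KO-only and 54 shared regions, a share of 73.6%. Strong single-list peaks were 38 for FM and 11 for KO at −log10 q of at least 5, and 0 for FM and 1 for KO at 20. Within 20 kb there were 0 in the FM list. Without Six6 and Rax, on chromosomes 12 and 18, the share was 79.4%. The other alternatives (50% overlap, any region within 50 kb of the gene, peaks closer than 500 bp merged, assignment by edge, row of highest fold) moved no count by over 1.5 times and no start peak fold. No paired analysis was possible because each group is 1 pooled list, and for the same reason no replicate could be left out. Depth limits which weak regions were called: a region under about 45 fragments appears in neither list, so absence of a peak is not absence of open chromatin. That floor is the one at the genome background. Over a local background of 56.1 fragments, a KO peak inside Lhx5 with a pileup of 80 had a −log10 q of only 1.42.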
